A study of Mus musculus with 451 samples.

Results

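The genes described are 10 enzymes and inhibitors that turn over extracellular matrix: the matrix metalloproteinase genes Mmp2, Mmp3, Mmp11, Mmp14 and Mmp23, the tissue inhibitor genes Timp1, Timp2 and Timp3, and the Adamts family genes Adamts2 and Adamts5. They were taken by name from the table of read counts, all 10 were found, and all 10 had at least 100 reads, out of 48795 gene symbols of which 25841 had a read. The cells came from tail tendons of C57BL/6 mice 4 weeks old, either wild type (WT, 227 cells) or with both copies of Mohawk homeobox knocked out (Mkx-/-, 224 cells), and the labels name no drug or other agent for either. Mkx is a transcription factor of the tendon lineage, and tendons of the knockout form ectopic bone. Tendons were digested in collagenase and single cells were captured on a Fluidigm C1 high-throughput chip, so each of the 451 samples of the series was 1 cell. Animal and chip are not given in the labels. All cells of a genotype were therefore handled as 1 sample, no test between genotypes was possible, and every interval below covers counting error only.

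Matrix metalloproteinases are zinc enzymes that cut collagens and other matrix proteins, and most are made as inactive proenzymes. Mmp14 sits in the cell membrane, cuts fibrillar collagen and activates the proenzyme of the gelatinase Mmp2, for which Timp2 acts as the bridge at low amounts and as an inhibitor at high amounts. Mmp3 (stromelysin) cuts proteoglycans and activates other proenzymes, Mmp11 and Mmp23 are less studied members, and Mmp23 is held in the membrane until it is released. Adamts2 does not degrade collagen but removes the amino-terminal propeptide of procollagens I, II and III before fibrils form, and Adamts5 cuts aggrecan and versican. Timp1 and Timp2 inhibit most secreted metalloproteinases, while Timp3 binds the matrix and also inhibits Adamts enzymes. Tendon is built mainly of collagen I fibrils, and enzymes of both kinds act on it, those that process new collagen and those that remove it.

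Levels are summed reads divided by the sum over all genes and brought to one common total (CPM) over the cells named, and genotypes were compared by the log2 ratio, Mkx-/- level over WT level, with its 95% interval. A gene is called higher or lower where the levels were at least 1.5-fold apart. The WT cells held 13630536 reads (median per cell 51788, from 13076 to 335813), and the Mkx-/- cells held 14145394 (median per cell 56121, from 14226 to 294791). Mkx itself was at 33.8 CPM in WT cells against 15.5 CPM in the Mkx-/- cells, for a log2 ratio of -1.13 (-1.37 to -0.89), so the direction followed the labels although reads of the gene remained. Cells were clustered without the 10 genes and without the wider list of matrix enzymes, which gave 3 clusters. The TPC-like cluster (92 WT and 86 Mkx-/- cells) was higher in all 5 markers of tendon progenitor cells and was led by Arl5c, Wnt2 and Ildr2. The TC-like cluster (74 and 79 cells) was higher in all 6 tenocyte markers and was led by Cybrd1, Kcnk1 and Slpi, with the cartilage gene Col2a1 the fourth. The intermediate cluster (61 and 59 cells) had Mmp10 and Mmp3 among its leading genes and stayed unnamed because only 2 tenoblast markers had been fixed. Mmp10 and Mmp3 had no part in forming it. Median depth per cell was 47961, 37158 and 82854 reads in WT cells of the TPC-like, intermediate and TC-like clusters, against 50152.5, 42008 and 72928 in Mkx-/- cells. The clusters were rebuilt here and may differ in their cells from those of the study.

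Markers of other cell types were read in unequal shares of cells. The share was 9.25% of WT and 14.7% of Mkx-/- cells for endothelial and 18.1% and 15.6% for macrophage markers. It was 41.9% and 44.6% for mural, 39.2% and 53.6% for chondrocyte and 20.7% and 45.5% for Schwann cell markers. A single WT well, placed among the TC-like cells and the deepest of all at 335813 reads, held 87.8% of the WT reads of 5 endothelial markers, 17.1% of those of 5 mural markers and 45.6% of those of 4 Schwann cell markers. It also held 6.37% of the WT reads of Timp3. A TC-like Mkx-/- well held 71.3% of the Schwann marker reads of its genotype, together with 13.3% of the Timp1 reads and 10.0% of the Timp3 reads. The leading cell of the macrophage markers was TPC-like in each genotype and held 32.6% and 52.8% of those reads and no more than 0.725% of the reads of any of the 10 genes. The summed level was 116.6 CPM in WT cells against 94.7 CPM in the Mkx-/- cells for the mural list and 173.4 and 176.5 CPM for 5 chondrocyte markers, of which Matn1 was at 0 in both. The 5 osteoclast markers summed to 1045.7 and 1573.0 CPM and were read in 95.2% and 98.7% of cells. Of the 14254 WT reads 14139 were of cathepsin K, which is also on the wider list below, and of the 22250 Mkx-/- reads 20451 were. Most of the others were of Acp5, the tartrate-resistant acid phosphatase, with 79 reads in 13 WT cells and 1767 reads in 79 Mkx-/- cells. Its log2 ratio was 4.43 (4.10 to 4.77) over all cells and 6.84 (5.99 to 7.84) in TC-like cells, where 43 of the Mkx-/- cells held 1362 reads and the leading one 38.3% of them. Calcr, Oscar and Ocstamp, which also mark osteoclasts, had 8, 2 and 26 reads in WT and 0, 3 and 29 reads in Mkx-/- cells. Leaving out the wells that led the other lists, or all cells with an Acp5 read, is an alternative chosen after seeing the data, and its values are given where they end a call, turn a direction or move a value by much.

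To show what lies before the starts of these genes, the 200 bases upstream of the RefSeq start (GRCm38.p6) are printed for 1 of them that was read in few cells and 2 that were read in most. Mmp3 was read in 19.4% of WT cells, Mmp14 in 83.7% and Adamts2 in 86.8%. The sequences run 5′ to 3′ on the plus strand, and capitals mark matches on either strand to 3 motifs. The AP-1 site was searched as TGANTCA. For the TATA box the letters were TATAAA. The letters of the GC box were GGGCGG.
Mmp3, chr9:7445622-7445821: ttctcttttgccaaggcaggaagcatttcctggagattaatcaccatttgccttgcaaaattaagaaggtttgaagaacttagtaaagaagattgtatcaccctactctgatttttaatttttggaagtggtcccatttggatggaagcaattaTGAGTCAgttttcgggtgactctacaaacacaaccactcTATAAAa
Mmp14, chr14:54431398-54431597: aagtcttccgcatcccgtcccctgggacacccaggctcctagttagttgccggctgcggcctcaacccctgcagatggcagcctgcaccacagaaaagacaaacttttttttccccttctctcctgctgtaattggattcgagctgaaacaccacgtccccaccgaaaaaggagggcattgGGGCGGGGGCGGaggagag
Adamts2, chr11:50601885-50602084: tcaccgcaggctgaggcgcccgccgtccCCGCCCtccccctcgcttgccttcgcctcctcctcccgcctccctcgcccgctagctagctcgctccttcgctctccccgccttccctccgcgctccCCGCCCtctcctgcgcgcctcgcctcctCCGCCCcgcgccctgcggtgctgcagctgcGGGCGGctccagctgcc

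The Mmp3 stretch was 37% G and C, against a median of 53% over the 32851 promoters of the same table, and 7.09% of them were lower. It held 1 AP-1 match that begins 46 bases before the start and 1 TATA match that begins 7 bases before it, and no GC box. The Mmp14 stretch was 58% G and C with 2 adjoining GC boxes, and the Adamts2 stretch was 77.5% G and C with 4. Over all promoters, 5.48% held an AP-1 match, 9.96% a TATA match and 31% a GC box in these 200 bases. Promoters of 8 of the 10 genes were matched, and the AP-1 and TATA matches occurred in that of Mmp3 alone, while Mmp11, Timp1, Timp2 and Timp3 also held GC boxes and Mmp23 held none of the 3 motifs. The stretches of Mmp11 and Timp3, genes read in 3.52% and 28.2% of WT cells, were 65.5% and 66.5% G and C. The 3 stretches printed therefore do not stand for genes read in few or in most cells. Mmp2 and Adamts5 had no entry. A match is a run of letters and does not show that a factor binds.

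Over all cells, 2 of the 10 genes were at least 1.5-fold higher in Mkx-/- cells (Mmp2 and Mmp11) and 2 were lower (Mmp23 and Adamts2). Of the 10963 genes with at least 100 reads, 16% were higher and 13.1% lower by the same rule. The median of the 10 log2 ratios was 0.07, against 0.05 over those 10963 genes. Without the cells that held an Acp5 read, 3 of the 10 were higher (Mmp3 joining) and 3 lower (Timp1 and Timp3 joining, Adamts2 falling just short). The counts differed between clusters. In TPC-like cells none of the 10 was higher and 1 was lower (Mmp23), where 17.8% of 8192 genes were higher and 16% lower. In the intermediate cluster 4 were higher (Mmp2, Mmp3, Mmp11 and Timp1) and 1 was lower (Timp3), where 21.4% of 6461 genes were higher and 18.7% lower. In TC-like cells 3 were higher (Mmp2, Mmp11 and Adamts5) and 3 were lower (Mmp3, Mmp23 and Adamts2), where 28.1% of 8186 genes were higher and 13.1% lower. Within each cluster 9 of the 10 genes had at least 100 reads, the exception being Mmp11. The shares of all genes leave out genes under 100 reads. The counts of higher genes in the intermediate and TC-like clusters include Mmp11, so each is 1 above the count by the same filter. The median log2 ratio of all genes was 0.01, 0.04 and 0.21 in the 3 clusters in the same order, so in TC-like cells a ratio of a gene stands 0.21 lower when read against the other genes. Mmp2, Mmp14 and Adamts5 had a positive log2 ratio in all 3 clusters beyond its interval, so 3 of the 10 genes kept a direction, against 9.22% of genes. Another 5 (Mmp3, Mmp23, Timp1, Timp2 and Adamts2) had opposite directions in 2 clusters, against 36.1%. Passing an interval depends on the number of reads, and both shares include genes with as few as 100 reads. Mmp2, Mmp14 and Adamts5 had 5620, 6477 and 5775 reads in WT cells alone. The counts and shares are thus not like for like, and whether there is an excess cannot be read from them.

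**Figure D1:**
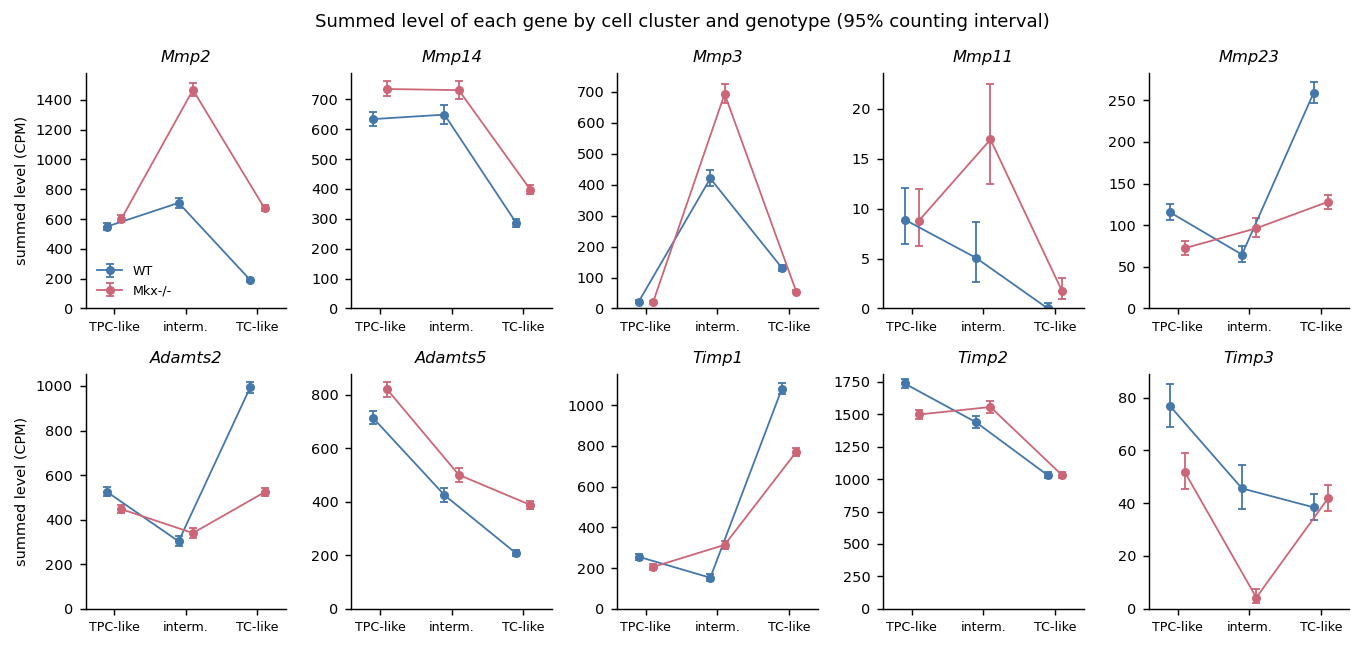
Summed level of each gene in CPM (vertical axis, starting at 0) in the TPC-like, intermediate and TC-like clusters of WT (blue) and Mkx-/- cells (red), with 95% Poisson intervals; lines only join values of a genotype. Mmp2 was at 190.8 CPM in WT against 672.1 CPM in Mkx-/- TC-like cells, and Adamts2 at 994.1 and 523.2 CPM.

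Mmp2, the gelatinase that digests denatured collagen and basement membrane collagen, showed the largest difference of the 10 genes over all cells. It was at 412.3 CPM (401.6 to 423.2) in WT cells against 808.9 CPM (794.1 to 823.8) in the Mkx-/- cells, which is 1.96-fold higher and a log2 ratio of 0.97 (0.93 to 1.02). Only 7.72% of genes had a higher ratio. A single cell of either genotype could be at 0, the median cell was at 201.5 CPM in WT cells against 537.5 CPM in the Mkx-/- cells, and the highest cells were at 5088 and 8486 CPM. The genotypes therefore overlapped widely over cells although the sums were far apart. A read of Mmp2 was found in 79.7% of WT cells (73.9 to 84.8) against 93.3% of the Mkx-/- cells (89.2 to 96.2). With every cell thinned to 28000 reads, which left out 23 WT and 18 Mkx-/- cells, the shares were 73% and 88.8%. No single cell carried the difference, since the leading cell held 3.45% of the WT reads and 3.10% of the Mkx-/- reads.

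The difference in Mmp2 was uneven over the clusters. In TPC-like cells the summed levels were 549.5 and 600.7 CPM, for a log2 ratio of 0.13 (0.05 to 0.21), while the median cell went the other way, at 354.6 CPM in WT cells against 214.5 CPM in the Mkx-/- cells. In the intermediate cluster the levels were 708.6 and 1466.5 CPM, 2.07-fold higher, and the TC-like levels of 190.8 and 672.1 CPM were 3.52-fold apart. The log2 ratio of 1.82 (1.72 to 1.91) in TC-like cells exceeded that of 96.2% of all genes there. In WT tendon Mmp2 was lower in TC-like than in TPC-like cells, for a log2 ratio of -1.53 (-1.63 to -1.43). In Mkx-/- tendon that order was turned, with a log2 ratio of 0.16 (0.09 to 0.23). Without the wells that led the marker lists the TC-like ratio of genotypes was 1.67, and without cells with an Acp5 read 2.22. Clustering in 10 dimensions raised the TPC-like value to 0.60.

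Mmp14, the membrane collagenase that activates Mmp2, differed less. It was at 475.2 CPM (463.7 to 486.9) in WT cells against 570.2 CPM (557.8 to 582.8) in the Mkx-/- cells, for a log2 ratio of 0.26 (0.22 to 0.31) that stayed under 1.5-fold. The log2 ratio had the same sign in each cluster, at 0.21 in TPC-like, 0.17 in intermediate and 0.47 in TC-like cells. Cells with a read made up 83.7% (78.2 to 88.3) of WT cells against 90.6% (86 to 94.1) of the Mkx-/- cells, or 79.4% and 89.8% at 28000 reads. TPC-like cells had 634.0 CPM in WT and 734.8 CPM in Mkx-/- tendon, and TC-like cells 287.2 and 397.7 CPM.

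Mmp3 was held by few cells. A read was found in 44 WT and 58 Mkx-/- cells, 19.4% (14.5 to 25.1) and 25.9% (20.3 to 32.1), and in each genotype only 4 cells held at least 50% of all its reads. The highest cells reached 8407 CPM in WT cells against 10399 CPM in the Mkx-/- cells, while the median cell of both was at 0. The summed levels of 147.8 and 171.6 CPM, for a log2 ratio of 0.22 (0.13 to 0.30), thus describe a small number of cells. The level was highest in the intermediate cluster, at 420.3 CPM in WT cells against 693.6 CPM in the Mkx-/- cells, 1.65-fold higher. In TC-like cells it was 131.1 and 54.7 CPM, for a log2 ratio of -1.26 (-1.44 to -1.08), and in TPC-like cells 21.6 and 19.4 CPM. The cells with a read were spread over the clusters, with 10 TPC-like, 16 intermediate and 18 TC-like cells in WT and 16, 23 and 19 in Mkx-/- tendon. Without the cells that held an Acp5 read the ratio was 0.63 over all cells and -0.09 in TC-like cells, where the call was lost. In TC-like Mkx-/- cells 1 cell held 61.7% of the reads, and with the leading cells of both genotypes left out the log2 ratio there was -1.89. In TPC-like cells the leading cell held 88.2% of the WT reads, and without it and its Mkx-/- counterpart the log2 ratio moved from -0.16 to 1.63.

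Mmp11 (stromelysin-3) was the rarest of the 10 genes. It had 55 reads in 8 WT cells and 99 reads in 11 Mkx-/- cells, 4.04 and 6.999 CPM, for a log2 ratio of 0.79 (0.31 to 1.30). It fell under 1.5-fold when each cell had the same weight (0.58) and at 28000 reads per cell (0.32). None of its 55 WT reads lay in TC-like cells, against 12 reads in 3 Mkx-/- cells, which with the WT sum set to 3 reads gives at least 3.70-fold higher before counting error in the 12 reads, and a log2 value of 0.63 without the leading Mkx-/- cell. Of the 74 WT TC-like cells 0 had a read, with a 95% upper limit of 4.86%. In the intermediate cluster it had 13 reads in 2 WT cells and 48 reads in 4 Mkx-/- cells, for a log2 ratio of 1.74 (0.83 to 2.75) that turned to -2.05 when 10 dimensions were clustered. Chchd10 overlaps Mmp11 on the opposite strand and was at 11.9 and 4.88 CPM. The strand used in counting is not given in the sources used here, so reads of the overlapping parts cannot be told apart. Timp1 and Timp3 also overlap genes on the opposite strand, Syn1 (15 and 7 reads) and Syn3 (0 and 7 reads).

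Mmp23, the membrane-held member, was lower in Mkx-/- cells. Its level was 172.6 CPM (165.7 to 179.7) in WT cells against 104.2 CPM (98.95 to 109.7) in the Mkx-/- cells, 1.66-fold lower, with a log2 ratio of -0.73 (-0.82 to -0.63). Cells with a read made up 52.4% (45.7 to 59.1) of WT cells against 44.2% (37.6 to 50.96) of the Mkx-/- cells, or 52.5% and 39.3% at 28000 reads. Among cells with a read the median was 227 CPM in WT cells against 127.4 CPM in the Mkx-/- cells, so both the share and the level per cell were lower. In WT tendon it was highest in TC-like cells, at 258.8 CPM against 115.2 CPM in TPC-like and 64.7 CPM in intermediate cells. In Mkx-/- tendon the values were 128.04, 72.3 and 96.3 CPM in the same order. The log2 ratio was -1.02 (-1.14 to -0.90) in TC-like and -0.67 (-0.88 to -0.47) in TPC-like cells. The intermediate cluster went the other way, at 0.57 (0.29 to 0.86). One Mkx-/- cell held 34.4% of the intermediate reads, and with both leading cells left out the intermediate value was 0.25. Without cells with an Acp5 read the TPC-like ratio was -0.30, under 1.5-fold.

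**Figure D2:**
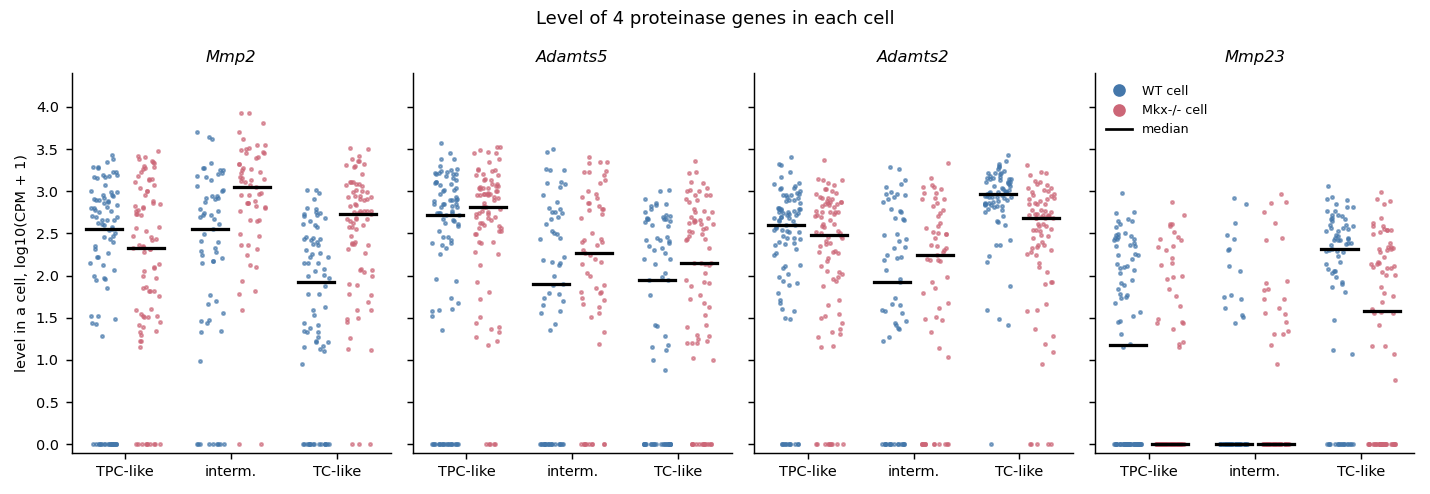
Level of Mmp2, Adamts5, Adamts2 and Mmp23 in each cell as log10(CPM + 1) (vertical axis), by cluster, with WT cells in blue, Mkx-/- cells in red and a bar at the median. Among TC-like cells the median of Mmp2 was 84.3 CPM in WT cells against 543.1 CPM in the Mkx-/- cells, that of Adamts5 87.8 and 140.4 CPM, that of Adamts2 917.3 and 475.8 CPM and that of Mmp23 204.7 and 37.3 CPM.

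Adamts2, the procollagen N-proteinase, was at 701.5 CPM (687.5 to 715.7) in WT cells against 462.6 CPM (451.4 to 473.9) in the Mkx-/- cells. The log2 ratio of -0.60 (-0.65 to -0.56) passed 1.5-fold by little, and it was -0.47 when each cell had the same weight, -0.46 at 28000 reads per cell and -0.55 without cells with an Acp5 read. The share of cells with a read was alike, 86.8% (81.7 to 90.9) and 87.5% (82.4 to 91.5). The difference lay in TC-like cells, at 994.1 CPM in WT cells against 523.2 CPM in the Mkx-/- cells, 1.90-fold lower. There the log2 ratio of -0.93 (-0.99 to -0.87) was lower than that of 92.4% of genes. It was -0.23 (-0.32 to -0.14) in TPC-like and 0.17 (0.03 to 0.30) in intermediate cells, a value that turned to -0.13 with 10 dimensions. In WT tendon Adamts2 was 1.90-fold higher in TC-like than in TPC-like cells, and in Mkx-/- tendon 1.17-fold.

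Adamts5, the aggrecan- and versican-cutting enzyme, had the opposite distribution. In WT tendon its level was 714.6 CPM in TPC-like, 425.0 CPM in intermediate and 207.3 CPM in TC-like cells. In Mkx-/- tendon it was 820.2, 500.9 and 388.2 CPM. The change was under 1.5-fold over all cells, from 423.7 CPM (412.8 to 434.8) to 546.3 CPM (534.2 to 558.6), for a log2 ratio of 0.37 (0.32 to 0.42). In TC-like cells alone it passed that size, with a log2 ratio of 0.90 (0.81 to 1.001), and it was 0.53 there when cells with 5000 or more detected genes were left out and 0.58 without cells with an Acp5 read. The share of cells with a read went from 70.04% of WT cells (63.6 to 75.9) to 86.6% of Mkx-/- cells (81.4 to 90.8), or from 67.6% to 80.6% at 28000 reads, where Mmp2 differed by more. Among cells with a read the medians were close, at 474 CPM in WT cells against 456 CPM in the Mkx-/- cells.

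**Figure D3:**
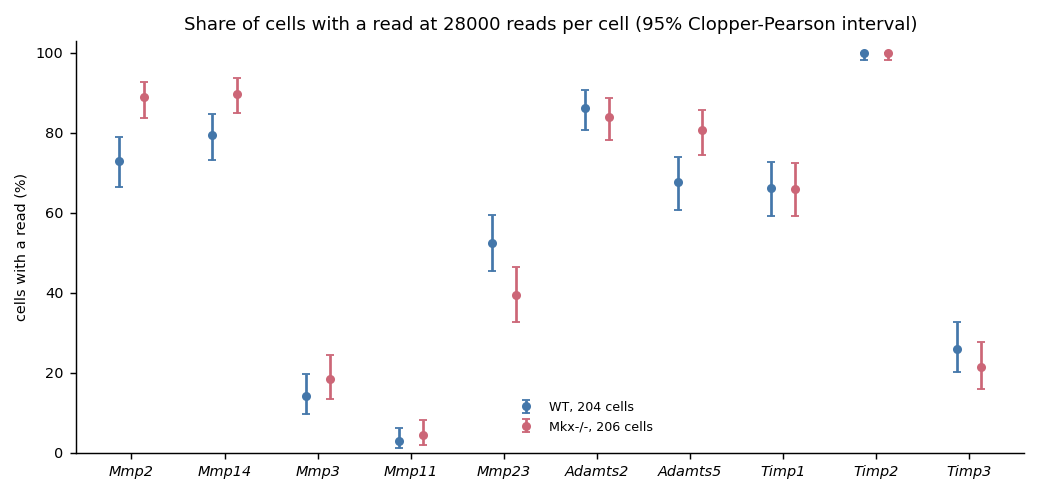
Share of cells with a read of each gene (vertical axis, percent) after each cell was thinned to 28000 reads, with 95% Clopper-Pearson intervals, for WT cells (blue) and Mkx-/- cells (red) of at least that depth. Mmp2 went from 73% to 88.8% and Adamts5 from 67.6% to 80.6%, while Timp2 was at 100% in both.

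Among the inhibitors, Timp2 was read in nearly every cell, 99.1% in WT (96.9 to 99.9) and 100% in Mkx-/- (98.4 to 100). It was at 1351.6 CPM (1332.2 to 1371.3) in WT cells against 1282.8 CPM (1264.2 to 1301.5) in the Mkx-/- cells, for a log2 ratio of -0.08 (-0.11 to -0.05). Its ratios within clusters were small, at -0.21 in TPC-like, 0.11 in intermediate and 0.00 (-0.05 to 0.05) in TC-like cells. The sign over all cells turned without cells with an Acp5 read (0.05), and the intermediate value reached -0.16 in 1 of the 2 alternatives that turned it. The TC-like value became -0.15 with median-of-ratios size factors and -0.18 when Col1a1, Col1a2 and Sparc were left out of the totals, alternatives that shift the median of all genes there by -0.15 and -0.18. The gene BC100451 overlaps Timp2 on the same strand and was at 9.76 and 15.8 CPM.

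Timp1, the broad inhibitor of secreted metalloproteinases, was highest in TC-like cells of both genotypes. In WT tendon it was at 1080.3 CPM in TC-like, 255.3 CPM in TPC-like and 152.3 CPM in intermediate cells, and in Mkx-/- tendon at 770.0, 205.3 and 313.6 CPM. Over all cells the log2 ratio was -0.31 (-0.35 to -0.26). It was -0.49 (-0.54 to -0.44) in TC-like cells and -0.31 (-0.44 to -0.19) in TPC-like cells, but 1.04 (0.87 to 1.22) in the intermediate cluster, where the level was 2.06-fold higher. The intermediate value was 0.54 when each cell had the same weight. The reads were concentrated, with 12 WT and 11 Mkx-/- cells holding at least 50% of them. The Mkx-/- well with most Schwann markers was the leading cell of Timp1 in its genotype, with 13.3% of the reads. Without the wells that led the marker lists the ratio was -0.51 over all cells and -0.79 in TC-like cells, which passes 1.5-fold. The leading WT cell, with 14.3% of the WT reads, was not among those wells and stayed in. With the leading cell of both genotypes left out, the log2 ratio over all cells was -0.29. Without the cells that held an Acp5 read it was -1.16 over all cells and -1.22 in TC-like cells, and the intermediate value fell to 0.15. The TPC-like value turned to 0.05 in 1 of the alternatives.

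Timp3, the matrix-bound inhibitor, was read in 28.2% of WT cells (22.4 to 34.5) against 25.4% of the Mkx-/- cells (19.9 to 31.7). Its level was 53 CPM (49.2 to 57) in WT cells against 37.4 CPM (34.3 to 40.7) in the Mkx-/- cells, for a log2 ratio of -0.50 (-0.67 to -0.34). The largest difference of the 10 genes within a cluster was that of Timp3 in the intermediate cluster. There it was at 45.6 CPM in WT tendon, with a read in 11 cells, and at 4.23 CPM in Mkx-/- tendon, where 5 cells held 12 reads, for a log2 ratio of -3.43 (-4.42 to -2.57). Only 0.526% of genes had a lower ratio in that cluster. The value ranged from -6.07 to -1.95 over the alternatives, all on the same side. In TPC-like cells the ratio was -0.56 (-0.81 to -0.32). In TC-like cells it was 0.12 (-0.13 to 0.37), a value that turned to -0.03 with size factors and to -0.06 when the collagen and Sparc reads were left out of the totals. Without the cells that held an Acp5 read it was -1.32, and the value over all cells was -0.87, so both passed 1.5-fold.

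**Figure D4:**
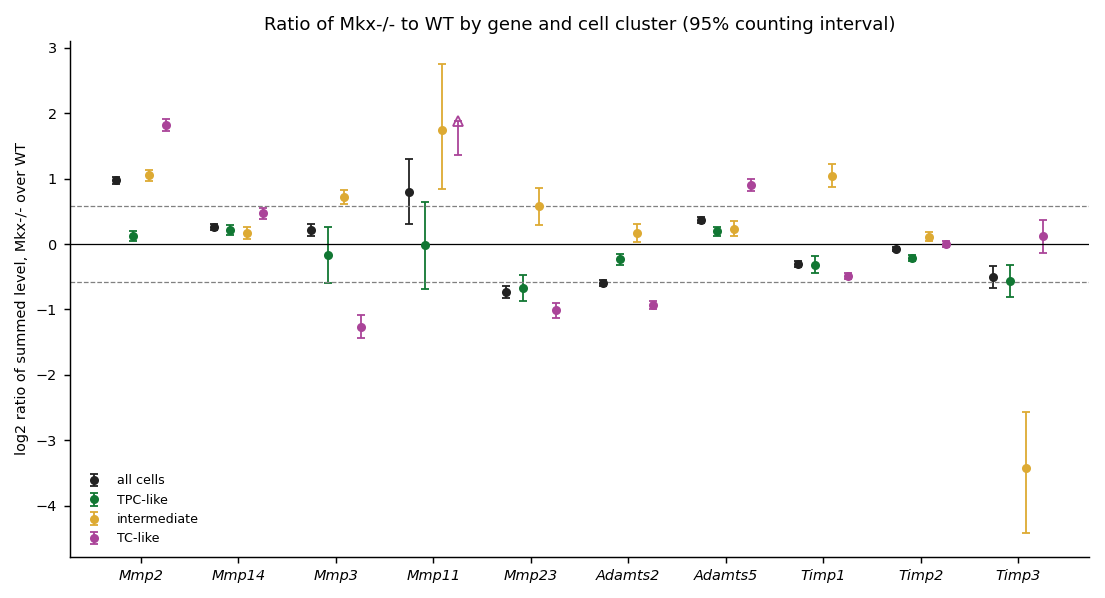
Log2 ratio of the summed level in Mkx-/- to that in WT cells (vertical axis) for each gene over all cells (black), TPC-like (green), intermediate (yellow) and TC-like cells (purple), with 95% counting intervals; dashed lines mark 1.5-fold and the open triangle is a bound. Mmp2 reached 1.82 in TC-like cells and Timp3 -3.43 in the intermediate cluster, and Mmp23 and Timp1 lay on opposite sides of 0 in different clusters.

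Enzyme and inhibitor were next set beside each other as reads of the enzyme for each read of the inhibitor in the same cells, a measure that does not depend on library size. For every Timp2 read there were 0.305 Mmp2 reads in WT and 0.631 in Mkx-/- cells. In TC-like cells the values were 0.185 and 0.652, and in TPC-like cells 0.316 and 0.401. Mmp14 reads for each Timp2 read went from 0.352 to 0.445, and in the intermediate cluster from 0.451 to 0.470, for a log2 ratio of 0.06 (-0.05 to 0.17) that includes 0. Adamts5 reads for each read of Timp3, its inhibitor, went from 7.999 to 14.6 over all cells, from 9.33 to 15.8 in TPC-like and from 5.40 to 9.30 in TC-like cells. The intermediate values of 9.32 and 118.3 rest on only 12 Mkx-/- reads of Timp3. These 3 ratios were higher in Mkx-/- than in WT cells over all cells and in each of the 3 clusters. All passed the counting interval except that of Mmp14 to Timp2 in the intermediate cluster. The pairs were chosen by hand, and no share over other pairs of genes was computed to set beside this. Timp2 was itself at -0.08 over all cells, so the ratios to it there largely repeat those of Mmp2 and Mmp14. Reads of RNA do not measure the balance of the proteins. Mmp3 reads for each Timp1 read went from 0.238 to 0.342 over all cells, for a log2 ratio of 0.52 (0.43 to 0.62). In TPC-like cells they went from 0.0848 to 0.0944, for a log2 ratio of 0.15 (-0.28 to 0.59) whose interval includes 0. Against the direction over all cells, they went from 2.76 to 2.21 in intermediate and from 0.121 to 0.0711 in TC-like cells.

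Because the products of Mmp14, Timp2 and Mmp2 meet in a complex at the cell surface, reads of all 3 in the same cell were counted. They were found together in 69.6% of WT cells (63.2 to 75.5) against 84.8% of the Mkx-/- cells (79.4 to 89.3), and at 28000 reads per cell in 63.7% (56.7 to 70.3) and 79.6% (73.5 to 84.9). The product of the 3 separate shares was 66.2% in WT and 84.6% in Mkx-/- cells, close to the shares counted. At 28000 reads the joint share was 65.9% and 78.5% in TPC-like, 68.8% and 87.5% in intermediate and 58.1% and 75.9% in TC-like cells. A cell of either genotype had reads of a median of 6 of the 10 genes.

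The 10 genes were also compared between the TC-like and TPC-like clusters within each genotype. In WT tendon Mmp3, Mmp23, Timp1 and Adamts2 were higher in TC-like cells, with log2 ratios from 0.92 (Adamts2) to 2.60 (Mmp3), and Mmp2, Mmp11, Mmp14, Timp2, Timp3 and Adamts5 were higher in TPC-like cells. All 10 were at least 1.5-fold apart. In Mkx-/- tendon 9 of the 10 kept the direction, the exception being Mmp2, and each of the 10 ratios lay nearer to 0 than in WT. Adamts2 went from 0.92 to 0.23, Adamts5 from -1.79 to -1.08, Timp3 from -0.996 to -0.31 and Timp1 from 2.08 to 1.91. For Mmp11 the WT side is a bound, since it had 0 reads in WT TC-like cells. The median distance from 0 was 1.35 in WT and 0.85 in Mkx-/- tendon. Of 10251 genes, 57.9% had a ratio nearer to 0 in Mkx-/- tendon, and of the 6834 that were at least 1.5-fold apart in WT, as all 10 genes were, 71.6% did. The median distance of those 6834 genes was 1.31 in WT and 0.90 in Mkx-/- tendon. The count was 10 of 10 under 3 of the 4 other clusterings and 9 of 10 with 10 dimensions. This comparison was chosen after the values were seen.

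**Figure D5:**
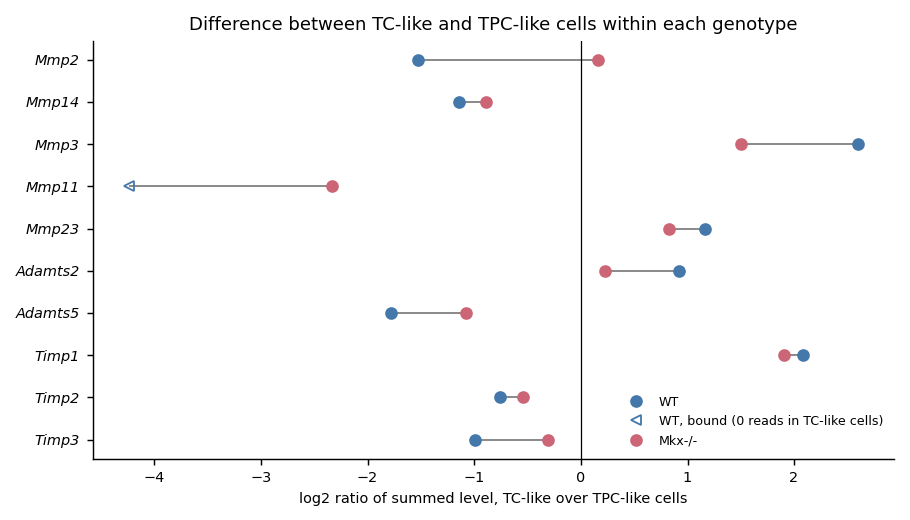
Log2 ratio of the summed level in TC-like over TPC-like cells (horizontal axis) for each gene in WT (blue) and Mkx-/- tendon (red), joined by a grey line; the open triangle is a bound. Each red point lies nearer to 0 than its blue point, and that of Mmp2 crossed from -1.53 to 0.16.

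Over single cells the likeness of these genes to others was weak. Over the 227 WT cells Spearman's rho of log2(CPM + 1) was computed against 3391 genes, for the 7 of the 10 genes read in at least 30% of WT cells. Cells share depth and cluster, so the values only describe. The genes and pairs named were picked by their rho over WT cells. Lower values over Mkx-/- cells can come from that choice alone, which was not tested. The highest belonged to Adamts2, with the Wnt inhibitor Wif1 (0.51), the collagen-binding Sparc (0.51) and Col1a1 (0.50), and over Mkx-/- cells these were 0.10, 0.23 and 0.15. Mmp23 followed with Sparc (0.42), Clec11a (0.41) and Rcn3 (0.41), at 0.21, 0.18 and 0.07 in Mkx-/- cells. Adamts5 was most like Cd55 (0.43), Fstl1 (0.40) and Ecm1 (0.40), at 0.31, 0.37 and 0.22 in Mkx-/- cells. Timp2 was most like Fstl1 (0.42), Ecm1 (0.41) and Olfml2a (0.38), at 0.30, 0.22 and 0.15 in Mkx-/- cells. Timp1 was most like Cilp2 (0.40), Ell2 (0.33) and Nfatc2 (0.33), at 0.30, 0.23 and 0.13 in Mkx-/- cells. The leading values were 0.33 for Mmp2 with Rpl10-ps1 and 0.30 for Mmp14 with Lum, at 0.04 and 0.06 in Mkx-/- cells. Between the 7 genes themselves the highest rho was 0.32, for Mmp23 with Adamts2, and over Mkx-/- cells it was 0.07.

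A wider list of 75 proteases, inhibitors and processing genes was read in the same way. Of these, 8 had no read (Mmp1a, Mmp1b, Mmp7, Mmp8, Mmp9, Mmp20, Mmp24 and Plg), and 51 had at least 100 reads. Over all cells 6 of the 51 were higher in Mkx-/- cells and 9 lower, with a median log2 ratio of 0.00. In TPC-like cells 5 of 43 were higher and 9 lower, in the intermediate cluster 10 of 35 were higher and 9 lower, and in TC-like cells 14 of 41 were higher and 6 lower, to be read against the shares of all genes given above.

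Over all cells, to which the values of the groups below refer unless a cluster is named, 5 of 18 other metalloproteinases had 100 reads, of which 1 was higher and 3 lower. Mmp13, collagenase-3, was at 10.6 CPM in WT cells against 28.5 CPM in the Mkx-/- cells, for a log2 ratio of 1.42 (1.14 to 1.71), and was read in 3.08% and 8.48% of cells. A single cell held 62.1% of its WT reads and another 51.4% of its Mkx-/- reads. Mmp17, anchored to the membrane by a lipid, had a ratio of -1.39 (-1.82 to -0.97). Mmp12, the macrophage elastase, had a ratio of -2.26, but 1 cell held 86.2% of its WT reads and 1 cell 95.9% of its Mkx-/- reads, and in neither genotype was it the cell with most macrophage markers.

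Of the other Adamts and Adamts-like genes 5 of 18 were higher and 5 lower. The largest differences were downward, with log2 ratios of -2.44 (-2.90 to -2.00) for Adamtsl1, -1.497 (-1.99 to -1.02) for Adamts12 and -1.18 (-1.51 to -0.86) for Adamts16, each under 20 CPM in WT cells. None of 4 other inhibitor genes was called. The membrane inhibitor Reck was at 0.37 (-0.01 to 0.76) and Serpine2 at -0.18 (-0.25 to -0.10). None of 6 activator genes was called either, although Plau, the urokinase that makes plasmin, stood just under the threshold at 63.97 and 95.6 CPM, for a log2 ratio of 0.58 (0.46 to 0.70). The proprotein convertase Furin was at -0.21 and the urokinase receptor Plaur at -0.19. In TPC-like cells 1 activator gene was higher and 3 were lower, with Plau at 0.87, Furin at -1.27 and Plaur at -0.65, and in TC-like cells 3 were higher and 0 lower.

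None of 6 membrane Adam genes was called, and the 3 largest log2 ratios were -0.47 (Adam10), 0.31 (Adam9) and -0.28 (Adam12). Within clusters 2 Adam genes were lower in TPC-like and 3 in intermediate cells, while 3 were higher in TC-like cells, where Adam9 was at 1.85. Adam10 was at -0.88, -1.01 and 0.52 in the TPC-like, intermediate and TC-like clusters. None of 3 procollagen processing genes was called. Bmp1, which removes the carboxy-terminal propeptide, was at 316.1 and 365.3 CPM, for a log2 ratio of 0.21 (0.15 to 0.27), where Adamts2, which removes the propeptide at the other end, was at -0.60. Its enhancers Pcolce and Pcolce2 were at 0.10 and -0.53, and Pcolce2 was called lower in the intermediate cluster, at -0.89 (-1.01 to -0.77). Of 9 cathepsin and collagen uptake genes 1 was lower, the serine peptidase Dpp4, at -0.88 (-1.02 to -0.73). Cathepsin K, the lysosomal collagenase, was at 1037.3 CPM in WT cells against 1445.8 CPM in the Mkx-/- cells, for a log2 ratio of 0.48 (0.45 to 0.51). By cluster it was at 0.18 in TPC-like, 0.79 in intermediate and 0.52 in TC-like cells, and was called higher in the intermediate cluster. Mrc2, the receptor that takes up collagen fragments, was at -0.39 (-0.52 to -0.27). It was called lower in TPC-like cells, at -1.70 (-2.00 to -1.41), and was at 0.14 in intermediate and -0.06 in TC-like cells.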

How the data were processed

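The authors deposited raw counts of reads per gene symbol and cell for 451 cells (227 WT, 224 Mkx-/-), with no molecular identifiers. Per their methods, reads were filtered with AfterQC, trimmed with NGSQCToolkit, aligned with bowtie2 and counted with featureCounts. Their text names mm9 and the submitters' processing notes name mm10. The table holds 4317 predicted-gene symbols that an mm9-era annotation lacks, and the handling of reads with several positions or of strand is not given in the sources used here, so genes are given by symbol alone, and overlaps between genes come from the mm9 annotation (GENCODE M1). No doublet caller was run, no cell was removed, and the counts of all 451 cells were distinct.

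Groups were taken from the genotype label of each cell. Reads were summed by genotype and cluster and divided by the sum over all genes. Intervals (95%) are exact Poisson for sums, exact conditional binomial for ratios and Clopper-Pearson for shares. They cover counting error only. A sum of 0 was set to 3 reads per sum, which makes the ratio a bound, and no ratio was formed with both sums at or below 3. Ratios and their intervals were checked on simulated Poisson sums. These hold no spread between cells, so the check says nothing of that spread in the data. Cells were clustered with Seurat 5.3.0 (R 4.3.3; canonical correlation anchors, 1671 genes, 4 dimensions, resolution 0.4). Of the 1691 most variable genes, 20 were on the lists and left out, 3 of them among the 10 genes. Leading genes of a cluster had at least 100 reads and a read in 25% of its cells. Other computation used Python 3.11.15, numpy 2.4.6, scipy 1.17.1 and pandas 2.3.3. Promoter sequences are from RefSeq (GRCm38.p6).

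The 10 genes and all lists were chosen with earlier results of these data known. All 10 genes are named. Of each group of the wider list up to 3 genes with at least 100 reads and the largest ratio are named, and for each of the 10 genes read in 30% of WT cells the 3 genes with the highest rho. Adamtsl6 of that list was read under its symbol Thsd4. Alternatives were equal weight for cells, other library sizes, cells by number of genes, leading cells left out, thinning to 28000 reads, other clusterings, other filters and a 2-fold threshold. Leaving out 1 well with vascular markers, or the 3 WT and 5 Mkx-/- wells that led the endothelial, mural, macrophage, chondrocyte and Schwann lists, or all cells with an Acp5 read, was added after the data were seen. Intervals of ratios of reads between 2 genes used the normal approximation for logs of Poisson counts.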

Additional observations from a re-analysis of the deposited data

Results flagged for a closer look

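For 5 of the 10 genes the log2 ratio of Mkx-/- to WT had opposite signs in different clusters, each beyond its counting interval. Of the 10963 genes with at least 100 reads, 36.1% did so by the same rule. Passing an interval depends on the number of reads of a gene, so this share is not like for like. With 1 sample a genotype the difference between clusters was not tested. Mmp3 was at 0.72 in intermediate and -1.26 in TC-like cells. Mmp23 was at -0.67 in TPC-like, 0.57 in intermediate and -1.02 in TC-like cells. Timp1 was at -0.31, 1.04 and -0.49 in the same order. Timp2 was at -0.21 in TPC-like and 0.11 in intermediate cells. Adamts2 was at -0.23, 0.17 and -0.93. Some of these signs did not hold under every alternative, since the intermediate values of Timp2 and Adamts2 reached -0.16 and -0.13 and the TPC-like value of Timp1 reached 0.05. In Mmp23, Timp1, Timp2 and Adamts2 the intermediate cluster was the side with the positive ratio, and in Mmp3 too. It was also the shallowest cluster, with medians of 37158 (WT) and 42008 (Mkx-/-) reads per cell, and the part of depth in these signs was not tested beyond thinning and equal weights for cells.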

How the results depend on the processing

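Of the 40 log2 ratios of the 10 genes (all cells and 3 clusters), 16 were at least 1.5-fold apart. Of these 16, 15 kept their sign under every alternative that gave a value (10 for all cells, 14 within clusters) and 9 stayed past 1.5-fold in all of them. The exception in sign was Mmp11 in the intermediate cluster, at -2.05 with 10 dimensions. The cause was not tested for this or any other change below, apart from the 2-fold threshold, which by its construction calls fewer genes. Over all cells the number of genes higher in Mkx-/- cells (2) was 1 with equal weight for each cell, 1 at 28000 reads per cell and 0 at 2-fold, and the number lower (2) was 0 at 2-fold. In TPC-like cells the number higher (0) was 1 without the leading cells, 3 with 10 dimensions and 1 when genes that differ over 2-fold were not clustered on. The number lower there (1) was 2 with equal weight, 2 with size factors, 2 without cells with an Acp5 read, 2 when genes that differ over 2-fold were not clustered on and 0 at 2-fold. In the intermediate cluster the number lower (1) was 2 with 10 dimensions. Of the wider list 10 genes in place of 6 were higher when the minimum was 20 reads. Of all 40 ratios 31 kept their sign under each of them. At 28000 reads per cell the 11 differences between genotypes in the share of cells with a read stayed within the interval of the main difference, but single shares moved further (Mmp2 in WT from 79.7% to 73%), and the difference for Timp1 went from 5.85 to -0.157 percentage points. Mmp11 in TC-like cells had no ratio with equal weight or at 28000 reads. No paired analysis was possible because the cells of each genotype form 1 sample and share no replicate numbers. Mmp11 and the intermediate value of Timp3 rest on few reads.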
